A study of Mus musculus with 16 samples.

Results

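The neuromuscular junction is the synapse at which a motor axon drives a muscle fiber, and 10 genes of its postsynaptic side were examined in tibialis anterior muscles of mice with and without the ubiquitin ligase UBR4. They were chosen by name and are 10 of the 47643 genes in the expression table: Chrna1, Chrnb1, Chrnd, Chrne and Chrng, which encode the subunits of the muscle acetylcholine receptor, and Agrn, Lrp4, Musk, Dok7 and Rapsn, which encode the proteins that gather the receptor under the nerve terminal. All 10 were found, and 9 had a mean of at least 1 TPM (transcript abundance corrected for transcript length and scaled to a sum of 1000000 per sample) over the 16 samples and were tested across the transcriptome, whereas Chrng was below that level.

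The 16 muscles formed 4 groups of 4 biological replicates, namely WT and UBR4 mKO mice at 6 and at 24 months of age. All mice were on the C57BL6/J strain and carried homozygous floxed Ubr4 alleles (UBR4fl/fl). The UBR4 mKO mice also carried ACTA1-Cre, a tamoxifen-inducible Cre recombinase under a skeletal muscle promoter, whereas WT mice were siblings without Cre, and mice of both genotypes had been injected with tamoxifen as young adults. Cre acts in the muscle fiber in this model, so that nerve, Schwann cells, vessels and other cells of the muscle keep Ubr4, and the RNA was that of the whole muscle.

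In the mature synapse the receptor is a pentamer with a pair of alpha subunits and 1 each of beta, delta and epsilon. The fetal receptor has the gamma subunit, encoded by Chrng, in place of the epsilon subunit, encoded by Chrne, and muscle fibers that lose their nerve make it again, along the whole fiber rather than at the synapse alone. Agrin, released by the axon and in another form made by muscle, binds LRP4, which activates the kinase MuSK. DOK7 is the cytoplasmic activator of MuSK, and rapsyn is the scaffold that holds the receptor in clusters. In cultured muscle and in transgenic mice, E-boxes bound by myogenic factors such as MyoD and myogenin are known to drive receptor subunit genes, and the N-box bound by ETS factors is known to drive transcription in the nuclei under the synapse.

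Promoter windows of RefSeq on GRCm38.p6, from 250 bases before to 50 bases after a gene's start, were found for 7 of the 10 genes. The windows of the fetal and the adult subunit genes are shown with that of Chrna1, the gene to which ratios are taken below. The E-box CAGCTG, which reads the same on both strands, and the N-box CCGGAA, searched on both strands, are in capitals. The Chrng window is chr1:87205561-87205860 on the plus strand, the Chrne window is chr11:70619145-70619444 on the minus strand and the Chrna1 window is chr2:73580289-73580588 on the minus strand.
Chrng: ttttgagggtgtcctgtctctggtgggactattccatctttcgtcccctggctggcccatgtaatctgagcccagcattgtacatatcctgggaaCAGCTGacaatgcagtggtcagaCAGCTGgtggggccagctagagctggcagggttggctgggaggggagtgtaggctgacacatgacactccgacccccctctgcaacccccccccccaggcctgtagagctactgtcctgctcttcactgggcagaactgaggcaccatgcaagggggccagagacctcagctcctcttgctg
Chrne: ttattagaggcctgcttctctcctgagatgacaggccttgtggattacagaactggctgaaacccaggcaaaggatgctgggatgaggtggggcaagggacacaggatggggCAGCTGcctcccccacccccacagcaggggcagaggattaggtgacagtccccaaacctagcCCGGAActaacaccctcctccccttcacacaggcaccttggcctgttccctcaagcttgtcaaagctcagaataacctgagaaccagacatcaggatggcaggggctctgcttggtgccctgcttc
Chrna1: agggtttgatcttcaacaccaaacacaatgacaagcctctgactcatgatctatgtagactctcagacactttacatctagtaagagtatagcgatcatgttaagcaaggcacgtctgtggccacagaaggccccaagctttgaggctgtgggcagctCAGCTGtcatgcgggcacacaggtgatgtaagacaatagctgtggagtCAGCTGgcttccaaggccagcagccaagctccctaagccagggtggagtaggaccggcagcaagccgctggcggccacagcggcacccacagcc

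Chrng has E-boxes that begin 155 and 132 bases before its start and Chrna1 has them 92 and 44 bases before its start. Chrne has 1 E-box that begins 138 bases before its start and 1 N-box that begins 76 bases before it. Of the 7 genes with a window, 4 hold the E-box, the last being Musk, at 68 bases before its start, and 1 holds the N-box. The windows of Agrn, Chrnb1 and Dok7 hold neither. For comparison, 16.3% of all 32851 promoter windows hold the E-box and 14.9% the N-box. These matches describe the letters of the windows, and neither binding nor promoter use was measured. Chrnb1, with neither motif in its window, rose in young UBR4 mKO muscle by close to the same factor as Chrna1 and Chrne (ratios of means 2.26, 2.28 and 2.28). Chrng and Chrnd are neighbors on chromosome 1 of GRCm38, Chrnd from 87190607 to 87200070 and Chrng from 87204657 to 87212694, both on the plus strand. The windows are set on RefSeq starts, and for Chrng the span just given, which is that of GENCODE, begins upstream of the whole window. Chrne and Chrnb1 are both on chromosome 11, on the minus strand, from 70614883 to 70619216 and from 69784036 to 69795943.

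Ubr4, the targeted gene, was at 11.1, 15.7, 13.2 and 9.09 TPM in WT and at 4.98, 4.91, 5.51 and 6.54 TPM in UBR4 mKO muscles at 6 months. At 24 months it was at 17.2, 17.0, 17.8 and 21.1 TPM in WT and at 10.1, 14.6, 4.28 and 7.63 TPM in UBR4 mKO muscles. At both ages each UBR4 mKO sample was below each WT sample, and the log2 fold change of Ubr4 was -1.12 at both ages (limma adjusted p = 0.00365 at 6 months and 0.0598 at 24 months).

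Some libraries go against their labels or stand apart. All samples are labelled male, but Xist, an RNA that coats the inactive X chromosome in females, was between 0.711 and 23.8 TPM in all 8 samples of 6 months and at most 0.0252 TPM in all 8 of 24 months. The fourth UBR4 mKO sample of 6 months had the highest Xist level and 0.181 TPM summed over 4 Y-linked genes. That sum was 25.5, 10.9, 4.36 and 11.2 TPM in WT and 45.9, 30.7 and 41.9 TPM in the other UBR4 mKO samples of 6 months. At 24 months it was 34.6 to 59.6 TPM. Age and the difference in Xist thus cannot be told apart. Young WT muscle was low in Y-linked RNA as well, so genotype at 6 months and age in WT cannot be told apart from that difference. Genes of the mitochondrial genome took 52.6% to 59.7% of TPM in the 4 WT samples of 6 months and 46.1% to 51.7% in the other 12, so that young WT muscle, the group against which the main results are set, stands apart. The median gene moved by 0.33 on the log2 scale in UBR4 mKO at 6 months, by 0.013 at 24 months, and with age by 0.26 in WT and -0.043 in UBR4 mKO. Fold changes are from TPM as deposited unless stated, and those of the 9 tested genes are also plotted after median-of-ratios scaling, which sets the median gene near 0. The 8 skeletal muscle markers summed to 81453 to 114921 TPM. Motor neuron markers were near 0, as 4 of 8 (Chat, Slc5a7, Slc18a3 and Mnx1) were at 0 in all samples and the sum was at most 0.728 TPM.

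The 10 genes spanned a wide range of levels in WT muscle at 6 months. By mean TPM Rapsn was highest (19.3 ± 2.23 TPM, SD, n = 4), followed by Chrnb1 (14.99 ± 3.47), Chrne (8.16 ± 1.29), Dok7 (6.92 ± 2.19), Chrna1 (4.14 ± 0.800), Agrn (3.13 ± 0.886), Lrp4 (2.04 ± 0.560), Chrnd (1.22 ± 0.314), Musk (1.16 ± 0.306) and Chrng. The sample ranges of neighbors in this order overlapped except between Chrnb1 and Chrne, between Dok7 and Chrna1 and between Musk and Chrng. The order was not that of the receptor's subunit numbers, as Chrna1 was below Chrnb1 in every sample. In the other 3 groups Chrnb1 had the highest mean, and its range was above that of Rapsn, the next gene, in UBR4 mKO muscles at 6 months only, the ranges overlapping at 24 months in both genotypes.

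**Figure D1:**
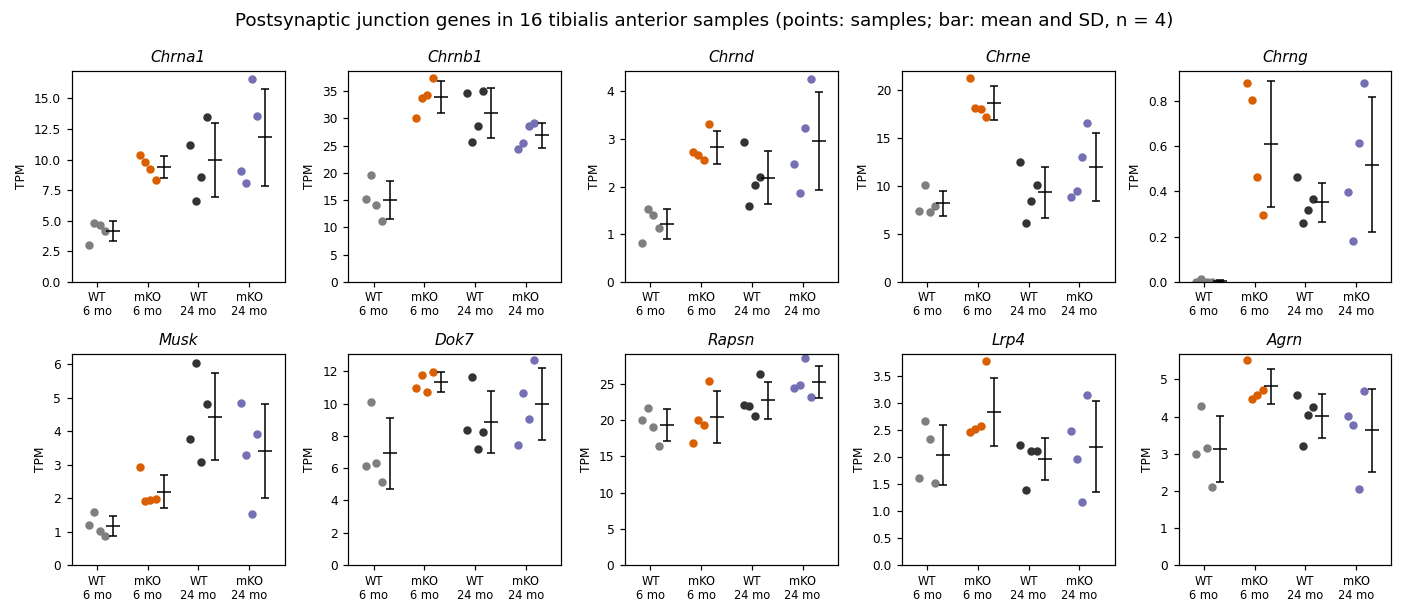
TPM of the 10 genes (vertical axes, each starting at 0) in the 4 samples of each of the 4 groups, with the mean and SD beside them. Chrna1, Chrnb1, Chrnd, Chrne and Chrng were higher in all UBR4 mKO than in all WT samples at 6 months, whereas Rapsn stayed between 16.4 and 28.5 TPM in all 16 samples.

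To find how these genes respond to loss of UBR4 in young muscle, UBR4 mKO and WT muscles were compared at 6 months. The 4 adult receptor subunit genes rose together, each by close to the same factor. Chrna1, the ligand-binding alpha subunit, was at 3.02, 4.77, 4.65 and 4.12 TPM in WT and at 10.4, 9.80, 9.22 and 8.29 TPM in UBR4 mKO muscles. The groups were apart, and the ratio of the means was 2.28, with a log2 fold change of 1.18 (limma adjusted p = 0.00133, standard error 0.23). Chrnb1, the beta subunit through which rapsyn holds the receptor, was at 15.1, 19.6, 14.02 and 11.2 TPM in WT and at 30.1, 33.7, 34.4 and 37.4 TPM in UBR4 mKO muscles. Every UBR4 mKO sample was again above every WT sample, with a ratio of 2.26 and a log2 fold change of 1.20 (limma adjusted p = 4.7e-05, standard error 0.14). Chrnd, the delta subunit, was low throughout, at 0.820, 1.53, 1.40 and 1.14 TPM in WT and at 2.73, 2.67, 2.57 and 3.32 TPM in UBR4 mKO muscles. Its ratio was 2.31 and its log2 fold change 1.17 (limma adjusted p = 0.00163). Chrne, the adult epsilon subunit, was at 7.41, 10.1, 7.28 and 7.87 TPM in WT and at 21.2, 18.1, 18.0 and 17.1 TPM in UBR4 mKO muscles. These groups were also apart, with a ratio of 2.28 and a log2 fold change of 1.19 (limma adjusted p = 0.000569).

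After median-of-ratios scaling the log2 fold changes of Chrna1, Chrnb1, Chrnd and Chrne were each 0.84 and all 4 were still called (limma adjusted p = 0.0289, 0.000186, 0.0178 and 0.0111). With Kruskal-Wallis and Dunn's test, the rank test of the study's methods, Chrna1 was not called (adjusted p = 0.0760), and the other 3 were, with adjusted p from 0.0353 to 0.0381. In whole-muscle RNA, more nuclei of a kind and more RNA per nucleus cannot be told apart.

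The genes of the clustering pathway were less uniform. Musk, the receptor tyrosine kinase of the pathway, was at 1.19, 1.58, 1.02 and 0.865 TPM in WT and at 2.94, 1.91, 1.94 and 1.98 TPM in UBR4 mKO muscles. The first UBR4 mKO sample was above the other 3, and all 4 were above WT, with a log2 fold change of 0.87 (limma adjusted p = 0.0241, standard error 0.29). Dok7, its activator, was at 6.14, 10.1, 6.30 and 5.12 TPM in WT and at 11.0, 11.8, 10.7 and 11.9 TPM in UBR4 mKO muscles. It had a log2 fold change of 0.75 (limma adjusted p = 0.00662), and the second WT sample came close to the UBR4 mKO range. Agrn, of which muscle RNA holds the muscle's own transcripts, was at 2.98, 4.27, 3.16 and 2.12 TPM in WT and at 5.51, 4.47, 4.58 and 4.71 TPM in UBR4 mKO muscles, with a log2 fold change of 0.64 (limma adjusted p = 0.0283). After median-of-ratios scaling Musk, Dok7 and Agrn were at 0.54, 0.40 and 0.30 and none was called (limma adjusted p = 0.153, 0.104 and 0.232). The rank test called Dok7 and Agrn but not Musk (adjusted p = 0.245). Musk was not called once the third or the fourth WT sample or the first UBR4 mKO sample was left out (adjusted p = 0.0555, 0.0857 and 0.0703), and nor was Agrn without either of the first and the fourth samples of WT or of UBR4 mKO muscles (adjusted p = 0.0557, 0.116, 0.0687 and 0.0554). With no filter on low values Agrn was not called either (limma adjusted p = 0.0544).

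Lrp4, the agrin receptor, was at 1.62, 2.68, 2.33 and 1.52 TPM in WT and at 2.47, 2.52, 2.59 and 3.78 TPM in UBR4 mKO muscles. These groups overlapped, and its log2 fold change of 0.48 (limma adjusted p = 0.129, standard error 0.26) did not pass the test, nor did the 0.14 after scaling. With array weights it was called (0.52, limma adjusted p = 0.00905), as were 8 of the 9 genes and 6429 of all 10628 as higher. Rapsn, the scaffold, was at 20.03, 21.7, 19.1 and 16.4 TPM in WT and at 16.9, 20.04, 19.3 and 25.4 TPM in UBR4 mKO muscles. It had a log2 fold change of 0.073 (limma adjusted p = 0.622, standard error 0.12) as deposited and -0.28 (limma adjusted p = 0.101) after median-of-ratios scaling, so its direction depended on the scaling. Of the 9 genes tested, 7 were called higher and 0 lower, where 43.7% of all 10628 genes tested were called higher and 1.15% lower. With median-of-ratios scaling 4 of 9 were called higher, where the share over all genes was 6.66%. Of all 10 genes, 8 had groups that did not overlap, all of them higher, against 39% of the genes tested. Without the fourth UBR4 mKO sample, which has little Y-linked RNA, 6 of 9 were called higher, in a fit that called 3097 of 10628 genes higher. With that omission and scaling, which called 685 of all genes higher and 1029 lower, 5 of 9 were called, namely the 4 adult subunit genes higher and Rapsn lower (-0.36, limma adjusted p = 0.0466). A fit with a covariate from Y-linked genes called 7 of 9, and 4567 of all genes higher.

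**Figure D2:**
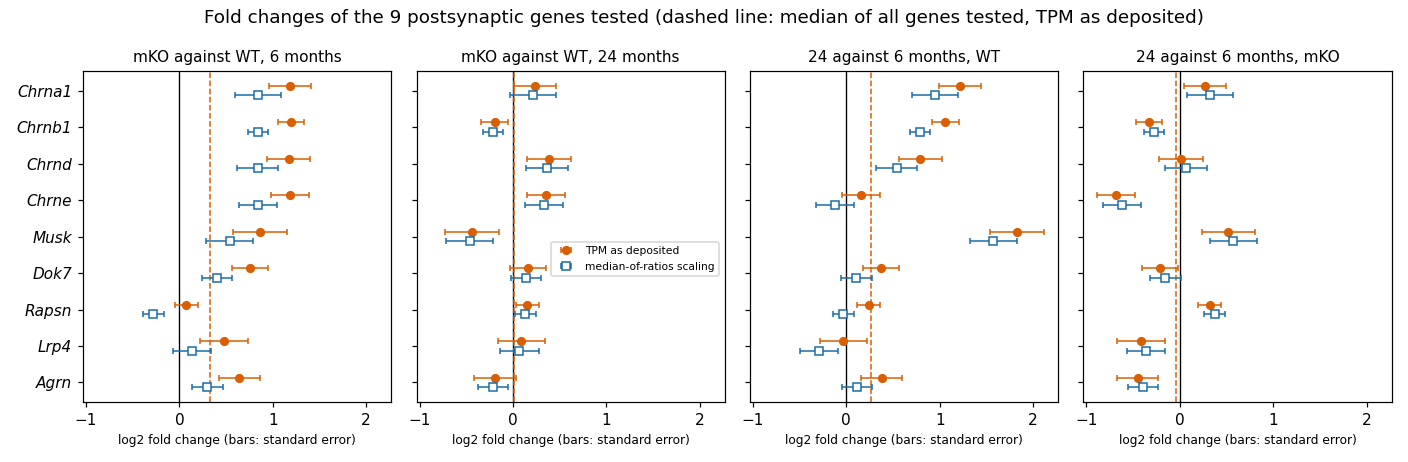
Log2 fold changes of the 9 tested genes with standard errors in the 4 comparisons, from TPM as deposited (filled circles) and after median-of-ratios scaling (open squares), with the median of all genes tested as a dashed line. At 6 months the 4 adult receptor subunit genes lay together at 1.17 to 1.20 as deposited and at 0.84 after scaling, whereas Rapsn lay near 0 or below it.

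The fetal subunit gene was then set against the adult one. Chrng was listed at 0 in 3 WT samples of 6 months and at 0.0113 TPM in the second. In UBR4 mKO muscles of that age it was at 0.882, 0.804, 0.466 and 0.294 TPM. The 4 UBR4 mKO values thus lay above the 4 WT values (exact permutation test, two-sided, p = 0.0286, adjusted p = 0.0571 over the 4 comparisons), and 0.0286 is the smallest p that 4 against 4 allow. At 24 months Chrng was at 0.463, 0.261, 0.318 and 0.365 TPM in WT and at 0.396, 0.181, 0.616 and 0.878 TPM in UBR4 mKO muscles. The WT samples of 24 months were all above those of 6 months (exact permutation test, two-sided, p = 0.0286, adjusted p = 0.0571), whereas the genotypes overlapped at 24 months (exact permutation test, p = 0.3714) and so did the ages in UBR4 mKO (exact permutation test, p = 0.6571). No fold is given because Chrng was listed at 0 in most samples of the first group, and the number of reads behind these low values is unknown.

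Chrng remained a small part of the pair in every sample. Its share of the summed TPM of Chrng and Chrne was 0%, 0.112%, 0% and 0% in WT and 3.99%, 4.25%, 2.52% and 1.69% in UBR4 mKO muscles at 6 months. At 24 months it was 3.57%, 4.06%, 3.63% and 3.50% in WT and 4.29%, 1.89%, 4.53% and 5.06% in UBR4 mKO muscles. The share was thus close to 0 in young WT muscle and between 1.69% and 5.06% in the other 12 samples, and being a ratio within a sample it does not depend on how TPM is scaled. It was higher in UBR4 mKO than in WT at 6 months, 3.11% ± 1.22 against 0.0280% ± 0.0560 (SD, n = 4 each), and higher at 24 than at 6 months in WT, 3.69% ± 0.254 (exact permutation test, two-sided, p = 0.0286 and adjusted p = 0.0571 for each). The difference in UBR4 mKO at 6 months was 2.71 to 3.56 points when any 1 of the 8 samples was left out, with an exact permutation p of 0.0571 when it was any WT sample. The genotypes did not differ beyond their spread at 24 months (exact permutation test, p = 0.7714), nor did the ages in UBR4 mKO (exact permutation test, p = 0.3429). Without the second UBR4 mKO sample of 24 months, the lowest of its group, the share was higher in UBR4 mKO than in WT at that age by 0.936 points (exact permutation test, p = 0.0286).

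When genes of every level above 0 were fitted, Chrng was called in the comparisons that involve young WT muscle. Its limma adjusted p was 0.000236 for UBR4 mKO at 6 months, 0.00182 for age in WT and 0.0274 for the difference of the UBR4 mKO effect between the ages, with log2 differences of 2.70, 2.12 and -2.37. These log2 differences depend on the 0.1 TPM added before taking logarithms and are no measure of the fold.

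**Figure D3:**
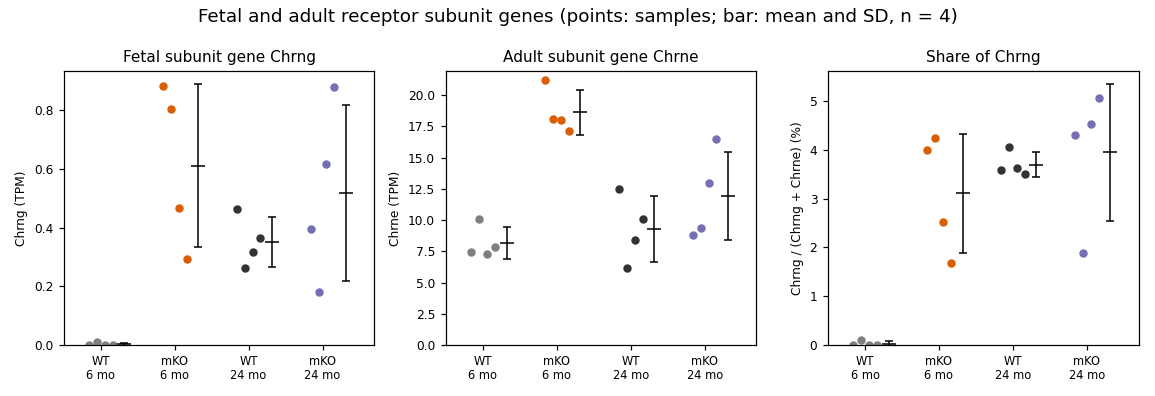
TPM of Chrng and of Chrne, and the share of Chrng in their sum in percent, in the 4 samples of each group with the mean and SD. Chrng was near 0 in WT muscles of 6 months and between 0.181 and 0.882 TPM elsewhere, and its share never exceeded 5.06%.

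With age in WT muscle 3 of the 4 adult subunit genes were called higher. Chrna1 was at 11.2, 6.57, 8.55 and 13.5 TPM at 24 months, above every WT sample of 6 months, with a ratio of means of 2.41 and a log2 fold change of 1.22 (limma adjusted p = 0.00216, standard error 0.23). Chrnb1 was at 34.6, 25.6, 28.7 and 35.1 TPM, a log2 fold change of 1.06 (limma adjusted p = 0.000149) without overlap. Both stayed called after median-of-ratios scaling, at 0.95 and 0.79 (limma adjusted p = 0.0246 and 0.000307). Chrnd, at 2.93, 1.60, 2.03 and 2.20 TPM, rose by a log2 fold change of 0.79 (limma adjusted p = 0.0241), but by 0.54 and not past the threshold after scaling (limma adjusted p = 0.141). It was not called once the first or the fourth WT sample of 6 months, or the first or the fourth of 24 months, was left out (adjusted p = 0.0712, 0.0720, 0.0827 and 0.0631). Chrne was at 12.5, 6.16, 8.44 and 10.1 TPM, which spans the levels at 6 months. It had a log2 fold change of 0.15 (limma adjusted p = 0.555, standard error 0.20) as deposited and -0.12 (limma adjusted p = 0.755) after scaling, but was called higher with array weights, which give each sample its own weight (0.49, limma adjusted p = 0.0232), in a fit that called 6266 of 10628 genes higher.

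Of the clustering pathway, Musk had the largest change with age. It was at 3.77, 6.05, 3.08 and 4.83 TPM in WT muscle at 24 months, all above the 0.865 to 1.58 TPM at 6 months. The ratio of the means was 3.81, and the log2 fold change was 1.83 (limma adjusted p = 0.000554, standard error 0.29), or 1.57 after scaling (limma adjusted p = 0.00131). Dok7 was at 8.33, 11.6, 7.19 and 8.26 TPM, Rapsn at 22.1, 22.0, 20.5 and 26.4 TPM, Agrn at 4.59, 3.21, 4.04 and 4.25 TPM and Lrp4 at 2.23, 1.40, 2.11 and 2.12 TPM. All 4 overlapped the samples of 6 months, and their log2 fold changes of 0.38, 0.24, 0.38 and -0.032 did not pass the test, the sign of Rapsn turning with median-of-ratios scaling (-0.034). Dok7 and Agrn were called with array weights (0.41 and 0.49, limma adjusted p = 0.0125 and 0.00278), and Rapsn with the covariate from Y-linked genes (0.38, limma adjusted p = 0.0379). In all, 4 of the 9 genes tested were called higher and 0 lower, where 24% of all genes tested were called higher and 1.07% lower. With scaling 3 of 9 were called higher, against 4.44%, and 5 of the 10 genes had groups that did not overlap, all higher, against 24.1% of the genes tested. The rank test called 0 of all genes and so 0 of the 9 (3 with unadjusted p under 0.05), with adjusted p from 0.120 to 0.224 for the 4 genes that limma called. A fit with a covariate from Y-linked genes called 5 of 9, and 2039 of all 10628 genes higher. Without WT_6mo replicate 2, Dok7 was called higher as well (0.57, limma adjusted p = 0.0158), in a fit that called 4860 genes higher.

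At 24 months the genotypes overlapped for all 10 genes, where 4.29% of the genes tested were higher and 1.51% lower without overlap. In UBR4 mKO muscles Chrna1 was at 9.09, 8.08, 16.6 and 13.6 TPM, Chrnb1 at 24.4, 25.5, 28.6 and 29.2 TPM, Chrnd at 2.48, 1.86, 3.22 and 4.26 TPM and Chrne at 8.83, 9.41, 12.97 and 16.5 TPM. Each of these overlapped the WT samples of 24 months, and the log2 fold changes were 0.24, -0.20, 0.39 and 0.36 with standard errors of 0.14 to 0.23. Musk was at 4.86, 3.30, 1.53 and 3.91 TPM, Dok7 at 7.45, 10.6, 9.03 and 12.7 TPM, Rapsn at 24.5, 24.9, 28.5 and 23.3 TPM, Lrp4 at 2.49, 1.96, 1.18 and 3.16 TPM and Agrn at 4.02, 3.76, 2.06 and 4.69 TPM. The third sample was the lowest of the 4 for Musk, Lrp4 and Agrn and the highest for Chrna1 and Rapsn. Limma called 0 of the 9 genes tested, with 0 at an unadjusted p under 0.05 as well, where limma called 0.63% of all genes. The rank test called 0 of the 9, with 0 unadjusted, but it called 0 of all 10628 genes here. After median-of-ratios scaling limma again called 0 of 9, with 0 unadjusted, where it called 0.913% of all genes.

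Within UBR4 mKO muscles, Chrnb1 and Chrne were lower in all samples of 24 months than in all samples of 6 months, which makes 2 of the 10 genes against 8.49% of the genes tested. Their log2 fold changes were -0.33 (limma adjusted p = 0.199) and -0.68 (limma adjusted p = 0.0560), so neither passed the test, and the p of Chrne was near the threshold. With WT_24mo replicate 1, WT_24mo replicate 2 or UBR4mKO_24mo replicate 4 left out, Chrne was called lower (adjusted p = 0.0439, 0.0320 and 0.0170). Musk, at 0.52 with all samples (limma adjusted p = 0.344), was called higher without UBR4mKO_24mo replicate 3 (0.85, adjusted p = 0.0338), and Rapsn, at 0.32 (limma adjusted p = 0.151), without UBR4mKO_6mo replicate 4 (0.43, adjusted p = 0.0411). With array weights Chrnb1 and Chrne were called lower and Musk and Rapsn higher (adjusted p = 0.0347, 0.0159, 0.00891 and 0.0296), where 801 of all genes were lower and 942 higher, and with the covariate from Y-linked genes Rapsn was called higher (adjusted p = 0.0406). Limma called 0 of 9 genes and 3 at an unadjusted p under 0.05, where 6.29% of all genes were called, and the rank test called 0 of 9 (0 unadjusted) and 0 of all genes. After median-of-ratios scaling Rapsn was called higher, at 0.38 (limma adjusted p = 0.0426, against 5.97% of all genes called higher), and Chrne was at -0.62 (limma adjusted p = 0.0621).

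The difference of the UBR4 mKO effect between the ages was tested directly. Chrnb1 was called, with an effect lower by 1.39 on the log2 scale at 24 than at 6 months (a difference of -1.39, limma adjusted p = 0.00149, standard error 0.20), and by -1.06 after scaling (limma adjusted p = 0.00349). It was higher in UBR4 mKO than in WT in 4 of 4 samples at 6 months, whereas at 24 months the groups overlapped. The differences for Chrna1, Chrnd, Chrne, Musk and Agrn were -0.95, -0.78, -0.83, -1.31 and -0.83 (limma adjusted p = 0.0850, 0.130, 0.0875, 0.0695 and 0.105) and did not pass the threshold over all genes, nor did those of Dok7, Lrp4 and Rapsn at -0.59, -0.38 and 0.079. In this fit a difference between the ages was thus called for Chrnb1 alone among the 9, with 1 of 9 called lower against 4.58% of all genes tested, and 1 of 9 against 0.969% after scaling. At an unadjusted p under 0.05 there were 7 of 9, against 3298 of all 10628 genes, and 4 of 9 after scaling, against 1982. Without the second WT sample of 6 months the count was 6 of 9, in a fit that called 2455 of all 10628 genes lower against 487 with that sample, and the 6 included Chrna1 (adjusted p = 0.0436), Chrne (0.0367), Musk (0.0292), Dok7 (0.0308) and Agrn (0.0341). It was 3 without the second WT sample of 24 months and 2 without the first, the third or the fourth UBR4 mKO sample of 24 months, where 510, 490, 515 and 657 of all genes were called lower. With array weights 7 of 9 were called lower, as were 2720 of all genes, namely Chrnb1 and also Chrna1 (adjusted p = 0.00106), Chrnd (0.00646), Chrne (0.00407), Musk (0.0332), Dok7 (0.0281) and Agrn (0.0112).

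Ratios of genes within a sample, which no scaling of TPM can move, were then compared. These ratios were chosen after the values had been seen, and none of the 20 tests passed after adjustment over them, the lowest adjusted p being 0.114 by the exact permutation test. Chrne to Chrna1 was 2.46, 2.11, 1.57 and 1.91 in WT and 2.04, 1.85, 1.96 and 2.06 in UBR4 mKO muscles at 6 months. At 24 months it was 1.11, 0.937, 0.987 and 0.747 in WT and 0.971, 1.16, 0.782 and 1.21 in UBR4 mKO muscles. The 8 samples of 6 months were all above the 8 of 24 months, and the mean went from 2.01 ± 0.371 to 0.946 ± 0.152 in WT and from 1.98 ± 0.0974 to 1.03 ± 0.197 in UBR4 mKO (SD, n = 4 each; exact permutation test, two-sided, p = 0.0286 and adjusted p = 0.114 in each genotype). With 1 sample left out the exact permutation p ranged from 0.0286 to 0.0571 in WT and stayed at 0.0286 in UBR4 mKO. Between genotypes the ratio differed by -0.034 at 6 months (exact permutation test, p = 0.8000), which is within its spread.

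Rapsn to Chrna1 was 6.64, 4.55, 4.10 and 3.98 in WT muscles of 6 months and between 1.62 and 3.35 in the other 12 samples. Its mean was 4.82 ± 1.24 in young WT, 2.21 ± 0.611 in young UBR4 mKO and 2.42 ± 0.654 in old WT muscles (SD, n = 4 each; exact permutation test, two-sided, p = 0.0286 and adjusted p = 0.114 for either comparison with young WT). Chrnb1 to Chrna1 was 3.71 ± 1.05 in young WT and 3.64 ± 0.675 in young UBR4 mKO, and Musk to Chrna1 was 0.289 ± 0.0885 and 0.232 ± 0.0389, so that neither differed beyond its spread (exact permutation test, p = 0.9429 and 0.3143). Chrnd to Chrna1 was 0.293 ± 0.0226 in young WT, 0.304 ± 0.0649 in young UBR4 mKO and 0.226 ± 0.0432 in old WT muscles, the last below every young WT sample (exact permutation test, p = 0.0286, adjusted p = 0.114).

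**Figure D4:**
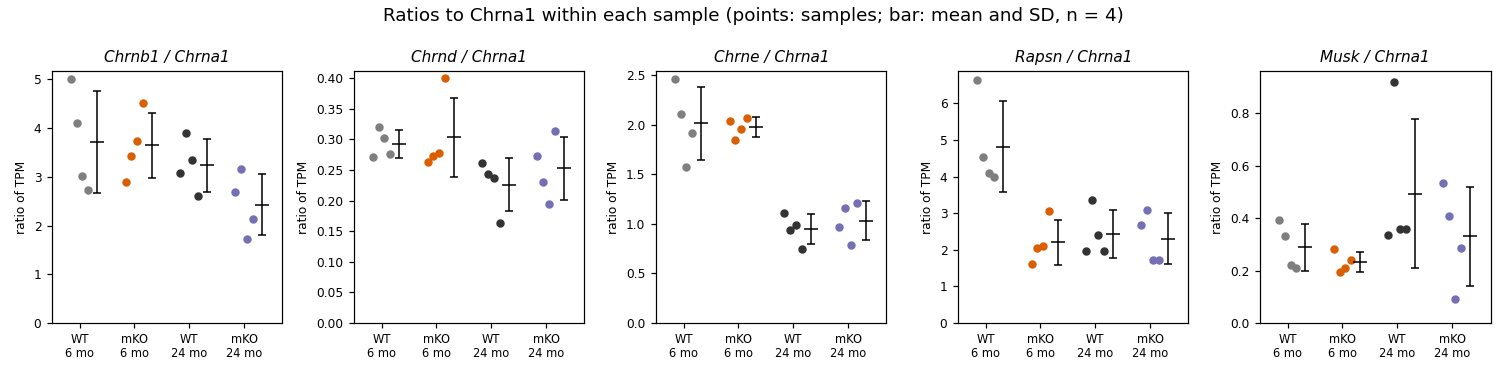
Ratios of the TPM of 5 genes to that of Chrna1 within each sample, with the mean and SD of the 4 samples of each group. Chrne to Chrna1 was at 1.57 to 2.46 at 6 months and at 0.747 to 1.21 at 24 months in both genotypes, and Rapsn to Chrna1 was highest in WT muscles of 6 months.

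Beyond the 10 genes, 39 further junction genes were examined as a list. Of these 33 were tested, and 16 were called higher and 0 lower in UBR4 mKO at 6 months, with a median log2 fold change of 0.43, where 43.7% of all genes were called higher and the median over all genes was 0.33. After median-of-ratios scaling 7 were higher and 3 lower, with a median of 0.084, where 6.66% of all genes were called higher and 1082 of 10628 lower, with a median of -0.018. The largest rises were those of Etv4 (1.69, limma adjusted p = 3.9e-05), an ETS factor of the junction, Pak1 (1.30, 0.000358), a kinase of the agrin pathway, and Ache (0.93, 0.000506), the acetylcholinesterase of the cleft. Etv4 was at 0.481, 0.650, 0.721 and 0.462 TPM in WT and at 2.10, 1.86, 2.17 and 2.11 TPM in UBR4 mKO muscles, and all 3 genes stayed called after scaling. At 24 months Etv4 had means of 0.664 TPM in WT and 1.08 TPM in UBR4 mKO muscles. It thus passed the filter of 1 TPM only through young UBR4 mKO muscle, the group where it was high, which limits its tests against that group. Of the 33, limma called 0 at 24 months, against 0.63% of all genes, and 2 at an unadjusted p under 0.05, against 1076 of all 10628.

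With age in WT, 7 of the 33 were called higher and 0 lower, a share close to the 24% called higher over all genes, and 3 higher and 0 lower after scaling, against 4.44% higher. They were led by Colq (1.44, limma adjusted p = 0.00167), the collagen tail of acetylcholinesterase, then Pak1 (0.92, 0.00687) and Ky (0.85, 0.00431), of which Colq was still called after scaling and Pak1 and Ky were not (0.0684 and 0.0552). Etv4 and Prkar1a, a regulatory subunit of protein kinase A, fell with age in UBR4 mKO by 0.91 and 0.45 (limma adjusted p = 0.00913 and 0.0266). Their UBR4 mKO effect and that of Cttn differed between the ages by -1.09, -0.63 and -0.69 (limma adjusted p = 0.0360, 0.0377 and 0.0362), of which that of Cttn was also called after scaling. The 11 neuronal acetylcholine receptor subunit genes were all below a mean of 1 TPM, and their sum was at most 1.03 TPM in any sample.

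Most of the tested genes known to rise when a muscle loses its nerve were higher in the same comparisons. Of 12 such genes, 10 were tested, and 7 were called higher in UBR4 mKO at 6 months, against 43.7% of all genes, with a median log2 fold change of 1.09 against 0.33 over all genes. With age in WT 9 were called higher, against 24% of all genes, with a median of 1.23 against 0.26. After scaling the counts were 5 and 6, against 6.66% and 4.44% of all genes. The 3 not called at 6 months were Myod1, a myogenic factor, with means of 11.7 TPM in WT and 11.5 TPM in UBR4 mKO muscles, and the muscle atrophy ubiquitin ligases Trim63, with 138 and 187 TPM, and Fbxo32, with 64.5 and 81.0 TPM, all with overlapping groups. Dach2, a corepressor too low to be tested, had means of 0.511 and 0.411 TPM. These 4 genes were named after their values were seen. Myog, the myogenic factor myogenin, was at 2.08, 2.86, 3.90 and 1.57 TPM in WT and at 12.9, 12.1, 11.0 and 9.79 TPM in UBR4 mKO muscles at 6 months, and at 13.9, 6.63, 9.67 and 9.84 TPM in WT at 24 months. Its groups were apart, with log2 fold changes of 2.16 and 1.93 (limma adjusted p = 9.4e-05 and 0.000377). Runx1, a transcription factor of denervated muscle, had 1.87 and 2.41 (limma adjusted p = 4.7e-05 and 3.6e-06), and Ncam1, the neural cell adhesion molecule, had 1.38 and 0.84 (limma adjusted p = 0.000560 and 0.0191, the latter not called after scaling). Sln, the calcium pump regulator sarcolipin, had the largest rise of the list in UBR4 mKO at 6 months, 3.74 (limma adjusted p = 3.1e-06).

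At 24 months 0 of these 10 genes were called by limma, against 0.63% of all genes, and 0 at an unadjusted p under 0.05, against 1076 of all 10628. The UBR4 mKO effect was lower at 24 than at 6 months for 5 of the 10, against 4.58% of all genes, and for 3 after scaling, against 0.969%. Among the 5 were Sln (-3.49), Myog (-2.65) and Runx1 (-2.26), which stayed called after scaling. Within UBR4 mKO muscles Sln fell with age by 1.75 (limma adjusted p = 0.00329) and Myod1 rose by 0.82 (limma adjusted p = 0.0120). For Myog, Runx1, Ncam1 and Sln the mean was lowest of the 4 groups in young WT muscle. So it was for Chrng and for every other postsynaptic gene examined except Lrp4. The median of all genes tested was also higher than in young WT muscle, by 0.33 in young UBR4 mKO and by 0.26 in old WT muscle (log2, TPM as deposited).

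Genes of developing and regenerating fibers were examined beside them. Of 9 such genes 7 were in the table and 4 were tested, all of them higher in UBR4 mKO at 6 months, against 43.7% of all genes, and 2 of them after scaling, against 6.66%. Actc1, the cardiac actin of immature fibers, was at 72.2, 76.4, 171 and 87.3 TPM in WT and at 739, 961, 1380 and 145 TPM in UBR4 mKO muscles (log2 fold change 2.69, limma adjusted p = 0.00212). The last value, from the sample nearly without Y-linked RNA, lay inside the WT range. Myh3, the embryonic myosin, was at 0.452, 2.26, 1.02 and 1.00 TPM in WT and at 6.26, 5.11, 2.45 and 2.92 TPM in UBR4 mKO muscles, with a log2 fold change of 1.83 (limma adjusted p = 0.00217). Myh8, the perinatal myosin, was too low to be tested, at 0.325 to 0.571 TPM in WT and 1.32 to 1.74 TPM in UBR4 mKO muscles. Tnnt2 and Myl4 had log2 fold changes of 0.96 and 0.82 (limma adjusted p = 0.00504 and 0.00611), neither called after scaling. In UBR4 mKO muscles Actc1 and Myh3 fell with age by 3.54 and 1.41 (limma adjusted p = 0.00102 and 0.0367). With age in WT, 1 of the 4 was called, against 24% of all genes, namely Myl4 at 1.08 (limma adjusted p = 0.00253), and the median of the 4 was 0.56.

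**Figure D5:**
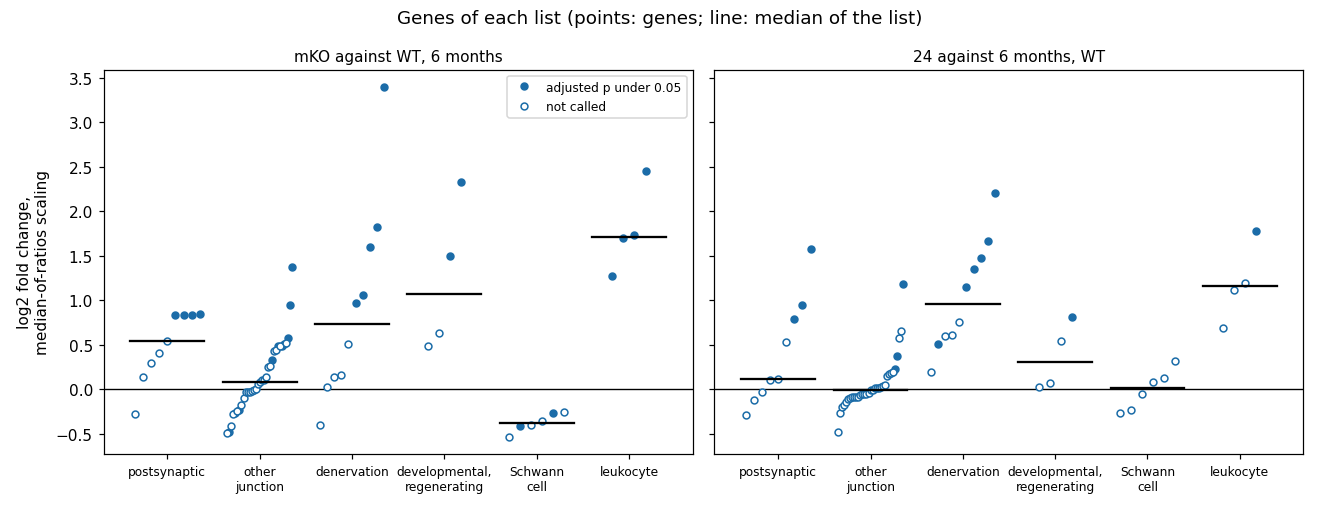
Log2 fold changes after median-of-ratios scaling of the tested genes of 6 lists in UBR4 mKO against WT at 6 months and in WT with age, with filled points for an adjusted p under 0.05 and a line at each list's median. The denervation list had 5 and 6 called genes in these comparisons, the postsynaptic genes 4 and 3, and the leukocyte markers 4 and 1.

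RNA of other cell types moved with some of these groups. Leukocyte markers, of which 7 were in the table and 4 were tested, summed to 13.9 to 20.5 TPM in WT and 46.8 to 160 TPM in UBR4 mKO muscles at 6 months, and to 26.6 to 55.1 TPM and 66.1 to 284 TPM at 24 months. All 4 tested were called higher in UBR4 mKO at 6 months and 2 with age in WT, against 43.7% and 24% of all genes, and 4 and 1 after scaling, against 6.66% and 4.44%. Their part in the results for the receptor genes was not tested. Schwann cell markers had sums of 33.6 to 44.4 TPM in WT and 33.3 to 46.5 TPM in UBR4 mKO muscles at 6 months and 0 of 6 called higher or lower by limma (0 at an unadjusted p under 0.05), although 2 were lower after scaling, as were 1082 of all 10628 genes. With age in WT 2 of the 6 were called higher, against 24% of all genes, and 0 after scaling by limma (1 at an unadjusted p under 0.05). At 6 months 3 of 6 fibroblast and 3 of 5 endothelial markers were higher, against 43.7% of all genes, and 1 and 0 after scaling, against 6.66%. Limma called 0 of 2 adipocyte and 0 of 3 tendon markers at that age (0 unadjusted in both).

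Markers of these cells also moved with age. In WT, 2 of 6 fibroblast markers were called lower, against 1.07% of all genes, and after scaling 2 of 6 fibroblast, 3 of 5 endothelial and 1 of 3 tendon markers were lower, as were 566 of 10628 genes. In UBR4 mKO muscles 3 fibroblast, 2 endothelial and 2 tendon markers were lower with age, as were 409 of all genes, and 3, 3 and 2 after scaling, where 563 of all genes were lower. For the 2 adipocyte markers limma called 0 between genotypes at 24 months and 0 with age in UBR4 mKO, though both had an unadjusted p under 0.05 in each, and 1 was called higher with age in UBR4 mKO after scaling. The part of these shifts in the results for the receptor genes was not tested.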

How the data were processed

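RNA of 16 tibialis anterior muscles was sequenced in paired-end mode. The authors trimmed and filtered the reads, aligned them to GRCm38 (mm10) with CLC Genomics Workbench and deposited TPM for 47643 genes. The handling of strand and of reads that match several genes is not given in the sources used here, and the labels and the methods name different library kits. TPM sum to 1000000 in each sample, so that depth is unknown and no counting interval can be given.

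From these, log2(TPM + 0.1) of 10628 genes, those averaging at least 1 TPM, was fitted with limma 3.58.1 in R 4.3.3, with 1 coefficient per group, a variance trend and no covariate. That average was over all samples, so a low gene could pass through the group in which it was high. P-values were adjusted by the Benjamini-Hochberg method over the genes tested (threshold 0.05), and fold changes on this scale understate those of low genes. Single values were compared by an exact two-sided permutation test over 70 assignments (smallest p 0.0286). P-values over replicates measure the spread between these mice. Median-of-ratios factors were taken from 14470 genes, those detected in all samples.

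The 10 genes and all gene lists were chosen with earlier results of these data known. Genes named besides the 10 and Ubr4 are, of the further junction genes, up to 3 called rises and 3 falls per comparison, those of the denervation and developmental lists called in a comparison (up to 3 a direction), and Myog, Runx1, Ncam1, Myh3 and Myh8. Marker lists were for skeletal muscle, motor neurons, Schwann cells, leukocytes, fibroblasts, endothelial cells, adipocytes, tendon and the Y chromosome. Positions are from GENCODE vM21, promoter windows from RefSeq. BLAST 2.17.0 found no alignment of at least 100 bases and 90% identity between transcripts of any of the 10 genes and another acetylcholine receptor gene. Only Chrna1 and Lrp4 aligned to other genes, over at most 212 and 139 bases, but the search reported 400 and 86 such genes. The part of reads from these stretches in the levels of Chrna1 and Lrp4, and in the ratios to Chrna1, was not tested. Rapsn overlaps an antisense transcript by 4 bases. Alternatives covered pseudocounts, filters, scaling, variance settings, array weights, the groups fitted, a replicate block, a covariate from Y-linked genes, Kruskal-Wallis with Dunn's test and 16 fits that each left out 1 sample. Combined scaling and omission, and the ratios to Chrna1, were added after seeing the data. Proteomics, Mymk, Mymx and Itgam were not analysed here.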

Additional observations from a re-analysis of the deposited data

Results flagged for a closer look

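Of 48 sets of 4 values (the 10 genes, the share of Chrng and Ubr4 in 4 groups), 5 had 1 value far from the other 3 relative to their range, which chance gives in about 1 in 20 sets. Of the 5, 2 are the same Chrng value as TPM and as a share, which stands apart from 3 zeros by construction. In WT muscles of 6 months the second sample had 0.0113 TPM of Chrng, and 0.112% as the share of Chrng in the sum with Chrne, where the other 3 were at 0. In UBR4 mKO muscles of 6 months Musk was at 2.94 TPM in the first sample, against 1.91 to 1.98 TPM in the others, and Lrp4 was at 3.78 TPM in the fourth, against 2.47 to 2.59 TPM. In WT muscles of 24 months Lrp4 was at 1.40 TPM in the second sample, against 2.11 to 2.23 TPM. The UBR4 mKO effect on Chrnb1 differed between the ages by a test of that difference (-1.39 on the log2 scale, limma adjusted p = 0.00149).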

How the results depend on the processing

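The number of the 9 tested genes called depended on scaling, weights and single samples, as follows, and except where stated the cause was not tested. In UBR4 mKO at 6 months 7 genes became 4 with median-of-ratios scaling and 4 with the mitochondrial genes left out, where 708 and 963 of all genes were called higher against 4645, 5 to 7 when 1 sample was left out, where 2626 to 6141 were, and 8 with array weights, where 6429 were. At 24 months the count was 0 in every fit, 0 to 0 with 1 sample left out. Few of all 10628 genes were called there, 46 higher and 21 lower in the main fit and 171 and 83 with array weights. Kruskal-Wallis with Dunn's test called 0, and single omissions called 6 to 44 higher and 2 to 30 lower. For age in WT, 4 became 7 with array weights, where 6266 of all 10628 genes were called higher against 2555, and 0 with Kruskal-Wallis and Dunn's test, which called 0 of all genes, and 3 to 5 with 1 sample left out, where 894 to 4860 were higher. For age in UBR4 mKO, 0 became 1 with a pseudocount of 1, 1 with median-of-ratios scaling, 2 without mitochondrial genes, 4 with array weights and 1 with the Y-linked covariate, 0 to 1 with 1 sample left out, and, with scaling, 1 without UBR4mKO_6mo replicate 4 and 3 without UBR4mKO_24mo replicate 3. Over all genes these 5 settings called 265, 634, 479, 942 and 242 higher and 434, 563, 505, 801 and 285 lower, against 260 and 409, single omissions 146 to 303 higher and 228 to 481 lower, and scaling with either omission 570 and 818 higher and 476 and 751 lower. For the difference between the ages, 1 became 2 without a filter and 2 with a minimum of 0.1 TPM, since Chrng then entered the fit (288 of 21223 and 493 of 14453 genes lower), 7 with array weights, where 2720 of all genes were called lower against 487, and 1 to 6 with 1 sample left out, where 179 to 2455 were.

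Directions that turned were those of values not called in the main comparison. Rapsn in UBR4 mKO at 6 months was at -0.28 with scaling, -0.18 without mitochondrial genes, -0.0090 with array weights, and with scaling at -0.36 without UBR4mKO_6mo replicate 4 (adjusted p = 0.0466) and -0.28 without UBR4mKO_24mo replicate 3 (adjusted p = 0.0243), both then called. Chrna1 at 24 months was at -0.062 with array weights and -0.022 with scaling without UBR4mKO_24mo replicate 3. With age in WT, Chrne was at -0.12 with scaling (with either omission too) and -0.039 without mitochondrial genes, Rapsn at -0.034 with scaling (with either omission too), and Lrp4 at 0.22 with array weights and 0.12 with the Y-linked covariate. With age in UBR4 mKO, Chrnd was at -0.033 with array weights and -0.053 with scaling without UBR4mKO_24mo replicate 3. The difference between the ages for Lrp4 was 0.041 and 0.13 with scaling and either omission. With 1 sample left out the ranges that crossed 0 were, in UBR4 mKO at 6 months, Rapsn -0.038 to 0.16, at 24 months, Lrp4 -0.10 to 0.35 and Agrn -0.33 to 0.052, with age in WT, Chrne -0.0046 to 0.33 and Lrp4 -0.15 to 0.12, with age in UBR4 mKO, Chrnd -0.18 to 0.20 and Chrng TPM -0.21 to 0.019, and, for the difference between the ages, Rapsn -0.0067 to 0.19. The share of Chrng at 24 months, higher by 0.252 points in UBR4 mKO, was lower by a log2 difference of -0.030 when log2(TPM + 0.1) values were compared (p = 0.943 by exact permutation), and from -0.119 to 0.936 points with 1 sample left out, the highest without UBR4mKO_24mo replicate 2.

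The correlations of same-numbered samples ran from -0.155 to 0.0669 between genotypes at 6 months, from -0.0503 to 0.181 at 24 months, from -0.0372 to 0.126 with age in WT and from -0.0497 to 0.119 with age in UBR4 mKO. They were over 0.1 in 0, 1, 1 and 2 of the 4 pairs, never in all 4, so the numbers were not taken to pair the samples. The replicate block left 7, 0, 4, 0 and 1 genes called in the 5 comparisons. Over all 10628 genes it called 4129, 27, 1927, 209 and 10 higher and 107, 11, 96, 323 and 274 lower. With 4 pairs a permutation within the block cannot go below 0.125, which is the p then given for the share (3.08 and 3.66 points) and the TPM of Chrng (0.608 and 0.349) in UBR4 mKO at 6 months and with age in WT. With 1 sample left out, the share in UBR4 mKO at 6 months was higher by 2.71 to 3.56 points and Chrng by 0.518 to 0.714 TPM, and the exact permutation p of both was 0.0571 without any 1 WT sample. As no read depth is known, an absence of Chrng from 3 young WT samples cannot be given a limit.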

Other observations

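Over the 16 samples, after median-of-ratios scaling, the tested genes whose log2 values followed those of Chrne most closely were Wdyhv1 (Pearson's r = 0.925), Ufsp1 (0.888) and Btf3l4 (0.885). These values describe likeness across libraries of 4 groups that share their genotype and age, and no p-value is given for them.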
